A study of Mus musculus with 43 samples.

Results

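The regions described here are the shared EKLF regions that lie away from gene ends: stretches of chromatin where EKLF was called in both wild-type and Nan/+ fetal liver, inside a gene or between genes but not at its outer ends. They were chosen by the called positions themselves. A region of the WT list was taken when it overlapped any Nan/+ region by at least 1 bp and its centre lay more than 1 kb from both ends of every protein-coding gene. This gave 716 of the 9181 deposited WT regions, or 14.5% of the 4945 WT regions away from gene ends. At gene ends the shared part was larger, 1530 of 4229 WT regions (36.2%). On all placed chromosomes 2246 of 9174 WT regions were shared. Because overlap, width and distance from a gene end belong to that choice, values of those measures are given as description, without a test. Position within the host gene is tied to such distance. It was compared by a test all the same, and those p-values are description and not support.

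EKLF, encoded by Klf1, was immunoprecipitated with the antibody 7B2a and sequenced (ChIP-seq) from livers of mouse embryos at embryonic day E13.5. The WT group carries the genotype labelled Nan strain WT. The other group is Nan/+, heterozygous for the Nan allele of Klf1, and comes from littermates per the series design. Each genotype has 3 ChIP libraries of 72023512 to 103170594 tags, combined by the authors into 1 list of regions, so no value per replicate exists and differences between lists have no replicate check. The labels call the cells primary erythroid, and the extraction protocol describes whole dispersed livers, which also hold other cell types. Nan/+ embryos keep a wild-type Klf1 allele, and the sources used here do not say which protein form the antibody detects, so EKLF and Nan-EKLF at a region cannot be told apart.

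EKLF is an erythroid zinc-finger activator that binds CACC-type boxes, C-rich motifs found in promoters and enhancers of red cell genes. The Nan allele changes an amino acid in the second zinc finger and alters which variants of the motif are bound. Positions away from the outer ends of genes include enhancers in introns and between genes, and also internal promoters: many erythroid genes use a first exon that lies inside the longer gene model. Gata1, for example, has an upstream first exon used in testis and a downstream one used in blood cells.

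Members were found at such internal starts. Of 700 members on chromosomes for which annotated starts were available, 155 (22.1%) had their centre within 250 bp of a RefSeq transcription start, 124 of them at a start of the protein-coding gene that held them. The table of starts covers 17273 of 21519 protein-coding genes, so in every class a region can lie at a start that the table does not hold, and the shares at starts are lower bounds. The sequences of 6 such starts are shown, because each belongs to a gene with a role in red cells and lies under a member although the outer ends of the gene are more than 1 kb away. Each runs 5′ to 3′ on the strand of the gene over 300 bases, 250 before the start and 50 from it on (RefSeq, GRCm38.p6, the assembly of mm10). Capitals mark every match to CCNCNCCC, the general CACC-type motif, on either strand. These 6 were picked after their values were seen.
Gata1, erythroid master transcription factor, chrX:7967861-7968160, minus strand: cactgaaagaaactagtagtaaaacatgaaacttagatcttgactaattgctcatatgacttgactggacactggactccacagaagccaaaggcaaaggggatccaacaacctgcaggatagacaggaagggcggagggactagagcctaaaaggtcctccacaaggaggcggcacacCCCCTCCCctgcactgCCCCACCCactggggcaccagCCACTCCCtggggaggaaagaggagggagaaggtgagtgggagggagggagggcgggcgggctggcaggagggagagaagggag
Hk1, hexokinase of the first glycolytic step, chr10:62340372-62340671, minus strand: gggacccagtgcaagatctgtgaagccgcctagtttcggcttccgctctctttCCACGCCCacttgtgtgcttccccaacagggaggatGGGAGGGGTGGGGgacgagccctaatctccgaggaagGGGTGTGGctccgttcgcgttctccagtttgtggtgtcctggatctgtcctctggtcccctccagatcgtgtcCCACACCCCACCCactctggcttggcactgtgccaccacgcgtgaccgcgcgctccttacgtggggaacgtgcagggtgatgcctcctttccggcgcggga
Zbtb7a, repressor of fetal globin (LRF), chr10:81136021-81136320, plus strand: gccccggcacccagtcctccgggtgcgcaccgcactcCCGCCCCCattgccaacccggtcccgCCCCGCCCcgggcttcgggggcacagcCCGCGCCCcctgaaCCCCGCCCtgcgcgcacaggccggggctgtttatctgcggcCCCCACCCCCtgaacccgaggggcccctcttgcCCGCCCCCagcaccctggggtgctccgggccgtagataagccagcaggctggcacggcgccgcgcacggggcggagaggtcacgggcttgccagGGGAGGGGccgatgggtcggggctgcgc
Fth1, ferritin heavy chain for iron storage, chr19:9982396-9982695, plus strand: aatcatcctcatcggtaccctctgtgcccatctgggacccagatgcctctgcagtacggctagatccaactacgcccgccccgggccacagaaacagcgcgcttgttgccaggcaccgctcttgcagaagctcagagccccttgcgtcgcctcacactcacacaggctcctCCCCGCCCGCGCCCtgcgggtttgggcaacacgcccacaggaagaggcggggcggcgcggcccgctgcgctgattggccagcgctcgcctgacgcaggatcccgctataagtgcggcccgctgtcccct
Tmcc2, a membrane protein gene of the red cell list, chr1:132367899-132368198, minus strand: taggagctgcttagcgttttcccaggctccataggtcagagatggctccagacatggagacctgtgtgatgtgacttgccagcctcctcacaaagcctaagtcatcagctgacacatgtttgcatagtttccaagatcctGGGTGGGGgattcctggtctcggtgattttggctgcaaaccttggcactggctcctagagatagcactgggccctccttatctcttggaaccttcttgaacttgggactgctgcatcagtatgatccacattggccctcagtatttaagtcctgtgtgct
Tfdp2, dimerization partner of E2F factors, chr9:96258998-96259297, plus strand: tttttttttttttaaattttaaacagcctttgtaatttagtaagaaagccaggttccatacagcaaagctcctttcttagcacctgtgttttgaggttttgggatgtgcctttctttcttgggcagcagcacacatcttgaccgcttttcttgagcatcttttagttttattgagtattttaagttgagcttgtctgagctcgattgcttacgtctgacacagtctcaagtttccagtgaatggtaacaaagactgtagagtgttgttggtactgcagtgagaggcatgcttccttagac

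Zbtb7a held the most matches of these windows, 8, and Hk1 held 6. Of the 6 in Hk1, 4 had A at the fifth base of the motif (CCNCACCC), the form of the classical CACC box, and 1 had G (CCNCGCCC). Gata1 had 3 matches, 1 of them with A and none with G. Fth1 had 2, both with G, Tmcc2 had 1, with A, and the Tfdp2 window had none, which says only that these letters are not in those 300 bases. A match is a description of the sequence and not a measured binding site.

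The called regions at these starts differed in how alike the lists were. At Gata1 the member (chrX:7967781-7968025) was 245 bp wide, its Nan/+ counterpart 293 bp, and its centre lay 7 bp from the start, 8.76 kb inside the 17.4 kb gene. At Hk1 a WT region of 1046 bp and a Nan/+ region of 426 bp lay 39.4 kb inside the 111.1 kb gene, with the WT centre 76.5 bp from the start. The Zbtb7a member was 736 bp against 399 bp in Nan/+, and the Fth1 member 799 bp against 501 bp. At Tmcc2 and Tfdp2 the WT regions, 650 and 1164 bp, met Nan/+ regions of 176 bp, the narrowest width that the Nan/+ calling produced. So of these 6, the Gata1 counterpart was wider than the WT region and the other 5 were narrower.

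The next comparison asked where members lay beside regions that were also away from gene ends but called in 1 genotype alone: 4229 WT-only and 11435 Nan-only regions. Members lay at annotated starts more often than either. The share within 250 bp of a start was 22.1% of 700 members (exact binomial bounds at 95% of 19.1 and 25.4). WT-only regions stood at 6.49% of 4066 (bounds 5.75 and 7.29), and Nan-only regions at 1.46% of 11021 (bounds 1.25 and 1.70). Fisher's exact test (two-sided, Benjamini-Hochberg over 16 share comparisons) gave adjusted p = 4.07e-32 and 2.03e-106. These tests compare lists, not genotypes, and neighbouring regions are not independent, which makes the p-values too small. The distance of 250 bp was settled on after several distances had been viewed. The order of the classes was the same at 100 bp, with 11.6% of members, 3.76% of the WT-only and 0.789% of the Nan-only class, and at 1 kb, with 31.7%, 10.7% and 3.53%.

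Members are wider than the others, with a median of 502 bp against 322 bp for WT-only and 176 bp for Nan-only regions, and a wide region overlaps another more readily. Among regions 300 to 700 bp wide in every class, members exceeded WT-only regions at starts by 14.5 percentage points and Nan-only regions by 17.6 (Fisher's exact test, adjusted p = 4.61e-14 and 1.44e-18). Calling settings differed between the lists, so this band does not match members with Nan-only regions. The part of width in the difference was not tested. With 1 region per 100 kb and class the excesses were 17.4 and 23.2 points.

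**Figure D1:**
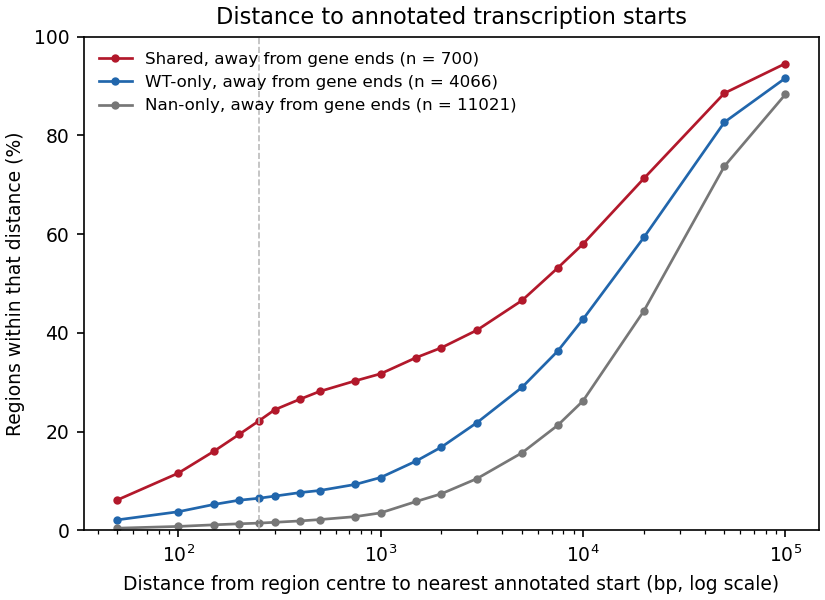
Share of regions (y axis, %) whose centre lies within a given distance (x axis, bp, log scale) of the nearest annotated transcription start, for shared, WT-only and Nan-only regions away from protein-coding gene ends. The dashed line marks 250 bp, where the shares are 22.1%, 6.49% and 1.46%; the shared curve lies above the others at each plotted distance up to 10 kb.

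The starts under members were mostly inside long gene models. The 124 members at a start of their own host gene lay a median of 6.03 kb from that gene's outer 5′ end, with quartiles of 2.39 and 14.5 kb. Starts of lncRNA genes, which make long transcripts without a protein product, accounted for the other 31. At Mafg, a small Maf partner of NFE2, the member lay 17 bp from the start of the lncRNA Gm17586. At Tet3, a DNA demethylase, it lay 20 bp from the start of B230319C09Rik. E2f3 (48 bp) and Cdkn1a (38 bp), which drive and restrain entry into the cell cycle, and Aff1 (39.5 bp), a scaffold of the super elongation complex, had members at their own internal starts.

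The windows at members' starts were rich in C and G. Median GC content was 64.7% in the 155 windows, 60.2% at WT-only regions (264 windows), 59.7% at Nan-only regions (161 windows) and 52.7% over all 32851 windows. Median counts of CG dinucleotides per window were 25, 20, 17 and 7. Windows at shared regions at gene ends had values close to those of members, with 65.3% GC and 26 CG. The G form of the motif, CCNCGCCC on either strand, stood in 59.4% of members' windows, 39.0% of WT-only windows and 37.9% of Nan-only windows (Fisher's exact test, adjusted p = 0.000231 and 0.000441), and in 24.0% of all windows; at shared regions at gene ends it stood in 61.3%. Counting only starts within 100 bp of a centre, both calls were lost (13.51 and 12.13 points, adjusted p = 0.126 and 0.249). The call against Nan-only windows was also lost with the ends of all genes (15.3 points, adjusted p = 0.0627) and among regions 300 to 700 bp wide (19.9 points, adjusted p = 0.0710). Within a band of CpG density the difference from WT-only windows was smaller, and that from Nan-only windows was not. In windows with 20 to 30 CG the shares were 69.0% of 58, 56.8% of 81 and 45% of 40, against 53.1% of all such windows; the part of CpG density in the difference was not tested.

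The other motifs did not pass the threshold as first tested. CCNCNCCC, the general form that contains both others, stood in 77.4% of members' windows, 67.8% of WT-only and 68.3% of Nan-only windows (adjusted p = 0.0777 and 0.124, Fisher's exact test) in 49.5% of all windows and in 80.2% at shared regions at gene ends. It passed against WT-only windows with a reciprocal overlap of 50% (adjusted p = 0.0464) and with centres within 250 bp (adjusted p = 0.0346), and against Nan-only windows with starts within 500 bp (adjusted p = 0.00354). The A form, CCNCACCC, stood in 23.9%, 18.2% and 17.4% (adjusted p = 0.224 for both), with 16.6% overall. GATAA, a core of GATA factor sites, stood in 17.4%, 20.8% and 22.4% (adjusted p = 0.509 and 0.399), with 25.4% overall. In windows with 20 to 30 CG its order was another, 17.2%, 8.64% and 12.5%, and CCNCNCCC stood in 79.3%, 81.5% and 75% of them (not tested). An E-box (CANNTG) within 15 bases of that core, in either order, as in composite sites of TAL1 with GATA1, stood in 3.87%, 4.17% and 4.35% (adjusted p = 1 for both). All were searched on both strands. These windows describe starts, not the 545 members away from them on chromosomes with annotated starts, whose sequence was not analysed here.

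Most members lay inside genes. The share was 543 of 716, or 75.8%. In the WT-only class it was 68.1% and in the Nan-only class 71.1%, with adjusted p = 0.000104 and 0.0127 by Fisher's exact test. Width moved with both differences. Among regions 300 to 700 bp wide, the excess over the WT-only class, 7.74 percentage points, was 5.60 (adjusted p = 0.0641), and that over the Nan-only class, 4.76 points, turned to -4.08 (adjusted p = 0.206). The excess over the Nan-only class also missed the threshold under 5 other alternatives, with 1.48 to 4.10 points, and was 11.4 points with 1 region per 100 kb. Exons and introns were not told apart, since the gene table gives no exons.

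Within genes, members sat toward the 5′ side. Among 438 members in genes of known strand, 42.0% lay in the first 25% of the gene, where 32.6% of the WT-only and 24.4% of the Nan-only class lay (Fisher's exact test, adjusted p = 0.000441 and 3.34e-14). Position in the gene is tied to distance from a gene end, which belongs to the choice, so these p-values are description and not support. The median distance from the 5′ end was 13.7, 24.5 and 40.7 kb, in host genes with a median length of 63.3, 75.1 and 100.3 kb. The 1 kb limit of the rule removes a larger part of the first 25% in short genes than in long ones. Starts moved with this result: among regions over 1 kb from any annotated start, the excess over WT-only regions was 4.10 points (adjusted p = 0.238), and that over Nan-only regions 9.23 points (adjusted p = 0.00316). The excess over WT-only regions, 9.44 points, also missed the threshold over 5 kb from gene ends (4.40 points, adjusted p = 0.229) and among regions 300 to 700 bp wide (4.99 points, adjusted p = 0.221).

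**Figure D2:**
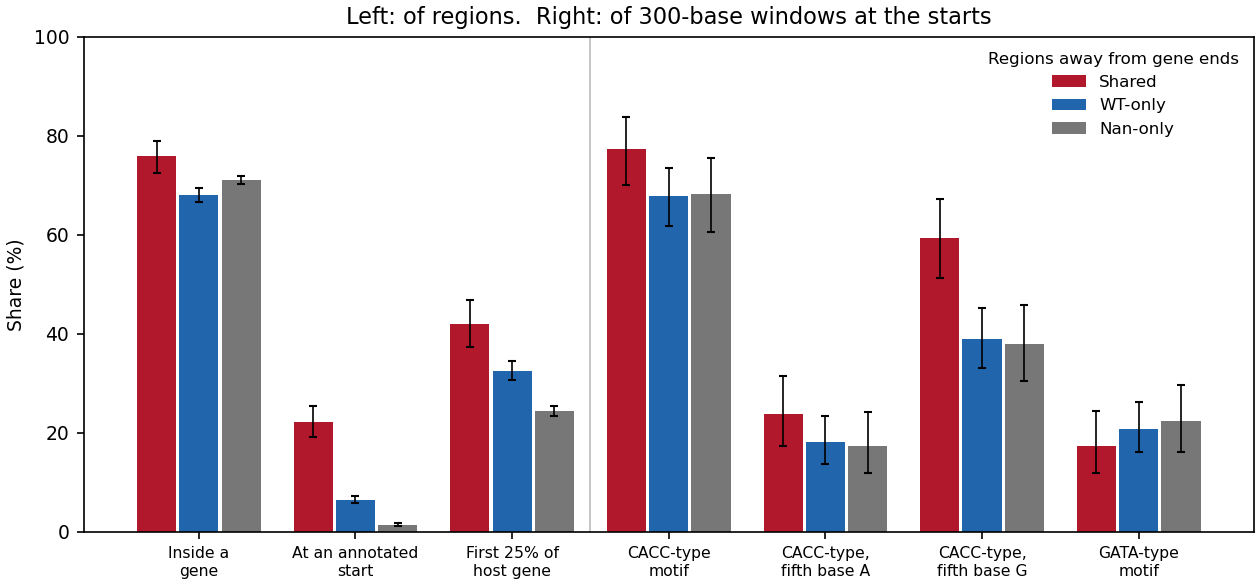
Shares (y axis, %) for shared, WT-only and Nan-only regions away from gene ends, with bars for the share and lines for 95% exact binomial intervals. The 3 groups on the left are shares of regions, the third of them among genes of known strand; the others are shares of windows at the starts, where CACC-type means CCNCNCCC, the forms with A or G at the fifth base are subsets of it and GATA-type means GATAA. Shared regions exceed the others at annotated starts (22.1%) and for the form with G (59.4%).

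The 2 lists marked overlapping places with regions of unlike size. The median width of members was 502 bp in WT (quartiles 341 and 706) and that of the best-overlapping Nan/+ region 329.5 bp (222.75 and 541.25). WT was the wider in 485 pairs (67.7%), and in 241 (33.7%) the Nan/+ region lay wholly inside the WT region. The median overlap was 260 bp, and centres were within 100 bp of each other in 348 pairs (48.6%). Shared regions at gene ends, of which there are 1530, had a median of 550 bp in WT and 411 bp in Nan/+. A Nan/+ counterpart at the minimum of 176 bp was found for 151 members (21.1%) and for 181 shared regions at gene ends (11.8%). That width was more common among the 11435 Nan-only regions away from gene ends. Their median was 176 bp, and 4054 of them were wider than the minimum. Widths depend on calling settings that differed between the lists, and within WT they carry no tag count.

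Members at starts and members elsewhere differed in these sizes too. At annotated starts the medians were 561 bp in WT and 395 bp in Nan/+, with 12.3% of counterparts at the minimum width. Inside genes and over 1 kb from any annotated start (333 members) they were 479 and 319 bp, with 22.8% at the minimum. Between genes and over 1 kb from a start (145 members) they were 423 and 286 bp, with 26.2%. The widths of the 716 pairs had a Spearman correlation of 0.326 across regions, which all come from the same pair of lists.

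**Figure D3:**
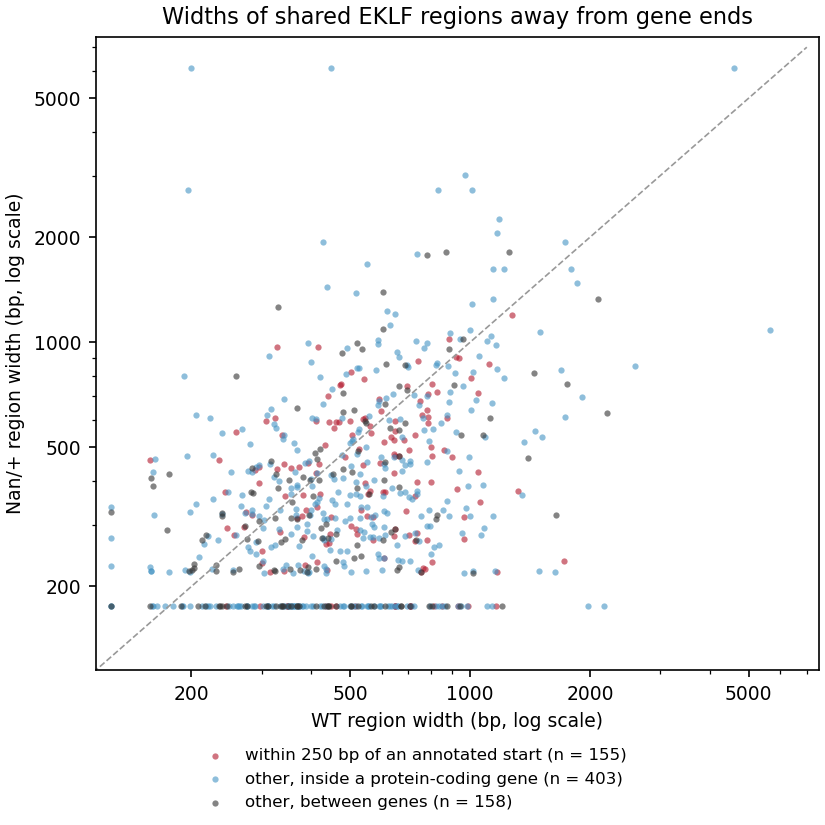
Width of each of the 716 members in WT (x axis, bp, log scale) against its best-overlapping Nan/+ region (y axis, bp, log scale), coloured by place; the dashed line marks equal widths. Most points, 485, lie below the line, and the row at 176 bp holds the 151 pairs whose Nan/+ region has the minimum width.

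Near the limits of the rule the members were as follows. The smallest overlaps that counted were 5 bp, at Ank, 6 bp, at Ube2h, and 9 bp, at Pabpc1, and 33 members overlapped by 50 bp or less. Just outside, WT regions at Rftn1, Gpr155 and Hnrnpa3 missed a Nan/+ region by 2, 4 and 4 bp, and 56 WT-only regions had a Nan/+ region within 100 bp. For distance, Noc2l (1001.5 bp), Pdk2 (1003 bp) and Trp53 (1008 bp) were just inside and Jund (992 bp), Trim41 (996.5 bp) and Hbb-bt (997 bp) just outside.

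The widest members lay in erythroid genes and in a few others. In Slc25a37, encoding the mitochondrial iron importer mitoferrin, a WT region of 5656 bp (chr14:69248665-69254320) took in 4 separate Nan/+ regions, the best-overlapping of 1087 bp. In Tspan32, encoding a tetraspanin of blood cells, the picture was the reverse: 1 Nan/+ region of 6123 bp spanned WT regions of 4598, 447 and 200 bp. A member of 2588 bp lay in Afp, alpha-fetoprotein of hepatoblasts, with 857 bp in Nan/+. Sptb, encoding beta-spectrin, held one of 2167 bp that met a Nan/+ region of 176 bp. In Arrdc3, an arrestin-related adaptor, widths were close, 1791 and 1623 bp.

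Members came in runs in some genes. The 716 members fell in 452 protein-coding genes or between genes, 391 of these genes held 1 member and 16 held 3 or more. Zfpm1, which encodes the GATA1 cofactor FOG1, held 11, met by 9 distinct Nan/+ regions. A single Nan/+ region of 2737 bp there spanned WT regions of 196 and 1009 bp and overlapped one of 831 bp by 158 bp, while a WT region of 1348 bp met one of 366 bp. Ank1, encoding ankyrin, which ties the spectrin skeleton to the membrane, held 7. Of these, 1911 bp was the widest (699 bp in Nan/+), and 3 had counterparts at 176 bp. Tex14, a testis kinase gene, held 6.

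Slc2a1, the glucose transporter GLUT1, held 4 members, between 17.7 and 24.6 kb from its 5′ end, and these took up all 4 Nan/+ regions in its body. Its WT regions of 1099 and 688 bp nearer the 5′ end had no Nan/+ counterpart. Sptb also held 4, and Sox6, a repressor of embryonic globin genes, held 3 of 291 to 412 bp among 23 WT and 45 Nan/+ regions in its body. Genes with many regions in both lists have more room for overlap, so these counts are descriptions.

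**Figure D4:**
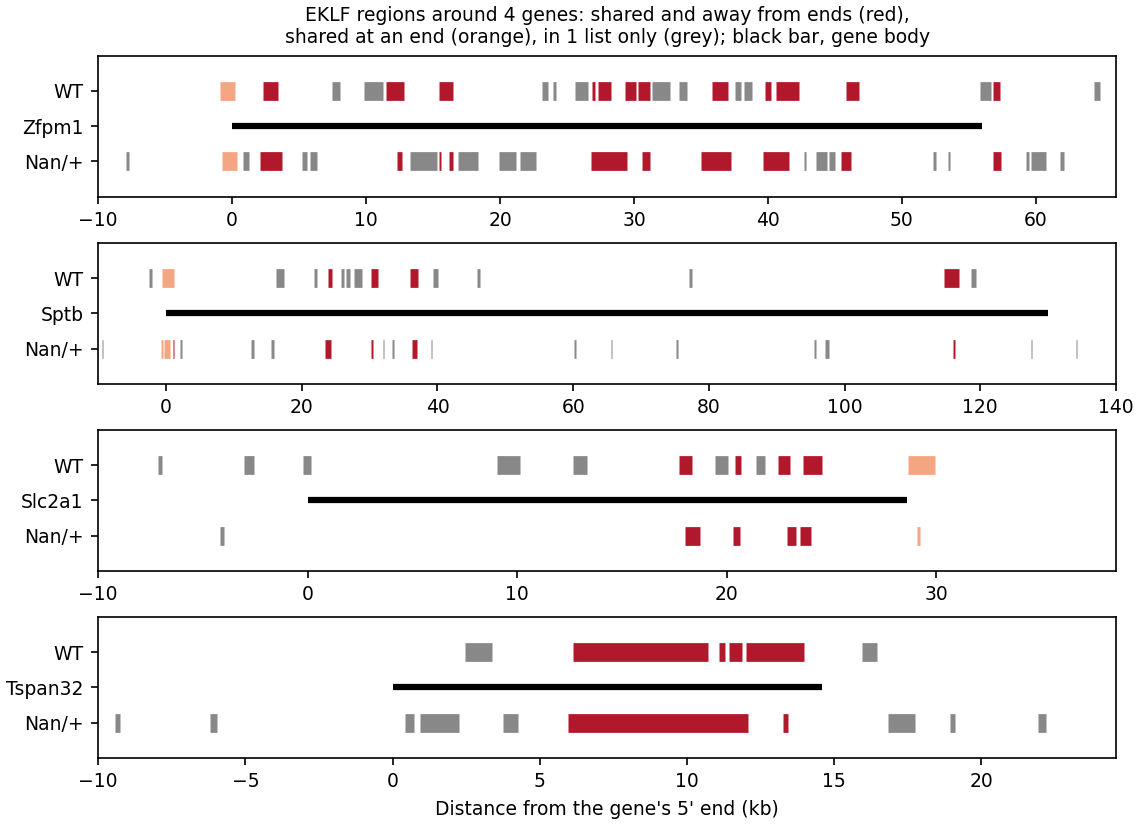
Regions of the WT list (upper row) and Nan/+ list (lower row) around Zfpm1, Sptb, Slc2a1 and Tspan32, by distance from the gene's 5′ end (x axis, kb); red, shared and away from gene ends; orange, shared at a gene end; grey, in 1 list only; black bar, gene body. In Slc2a1 all 4 Nan/+ regions inside the gene are shared, and in Tspan32 1 Nan/+ region spans 3 WT regions.

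Genes were next counted by function, a gene having a member when a member was centred between 10 kb before and 10 kb after its body. Of all 21519 protein-coding genes 709 did, or 3.29%, and each list is read beside that share, without a test. Length and density of regions were not matched. Genes of the red cell membrane and skeleton had the highest count, 14 of 32, with 33 members. WT-only and Nan-only regions away from gene ends also lay at these genes, 25 and 19 at Ank1 and 3 and 0 at Rhd, for example. Besides Ank1, Sptb and Slc2a1 they included Epb41, encoding protein 4.1, with 4 members (360 to 662 bp), Tspan33, a tetraspanin, with 3 (218 to 508 bp), and Piezo1, a mechanosensitive cation channel, with 677 against 535 bp. Gypc, glycophorin C, held 2 members, and Tpm1, the tropomyosin of the skeleton's actin filaments, also held 2.

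Erythroid transcription factors and cofactors had members at 13 of 41 genes, with 30 members, 12 of which were at Zfpm1 when its flank is included. Klf1 itself held 1 of 1133 bp (669 bp in Nan/+), 1060 bp from its annotated start. Tal1, the bHLH partner of GATA1, held 1 of 976 bp (336 bp in Nan/+), and Nfe2, a globin locus activator, 1 of 625 bp (599 bp). Foxo3, which acts in late erythroid maturation and oxidative stress, had 2. The first, of 1632 bp, met 220 bp in Nan/+, and the other, of 616 bp, met 867 bp. Cbfa2t3, encoding the corepressor ETO2, had 2 in its body (611 and 941 bp), met by Nan/+ regions of 281 and 427 bp.

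Heme synthesis and transport genes had members at 6 of 19. Alas2, the red cell form of the enzyme that opens the pathway, held 1 of 765 bp against 560 bp in Nan/+. The member beside Abcb10, a mitochondrial transporter of erythroid cells, was 2206 bp wide and 627 bp in Nan/+. Iron genes had members at 3 of 16: Slc11a2, the ferrous iron transporter DMT1, with 2 (790 and 1016 bp, met by 523 and 820 bp), Tfrc, the transferrin receptor, with 1 (281 and 252 bp), and Fth1. The globin genes had members at 0 of 8, which so short a list cannot tell from the 3.29% of all protein-coding genes. A region at Hbb-bt fell just short of the distance rule, at 997 bp.

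The remaining lists of functions also had members at some genes. Glycolysis had 4 of 17, Pol II pausing and elongation 5 of 27, cell cycle 4 of 31, enucleation and organelle clearance 4 of 28, chromatin regulators 3 of 29 and cytokine signalling 2 of 20. Among them were Pklr, the red cell pyruvate kinase (394 and 320 bp), Bcl2l1, encoding the survival factor BCL-XL, with 2 members, and Trak2, a mitochondrial adaptor, with 2. Housekeeping genes had members at 4 of 15, among them Actb (1142 and 1335 bp), Ywhaz, and Tfrc, which also stands in the iron list. Members were therefore not limited to red cell genes.

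Marker lists of other fetal liver cells were counted in the same way, as the only check of cell type that lists of positions allow. Macrophage (14), endothelial (11) and lymphoid and stem cell (15) markers had members at 0 genes. Lists this short cannot tell 0 from the 3.29% of all protein-coding genes, so these counts do not show that such cells are absent. Hepatoblast markers had them at 2 of 15, Afp and Hnf4a, and megakaryocyte markers at 1 of 15, Vwf, whose 2 members (795 and 948 bp) met Nan/+ regions of 176 bp. The part of other cell types in these regions was not tested.

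**Figure D5:**
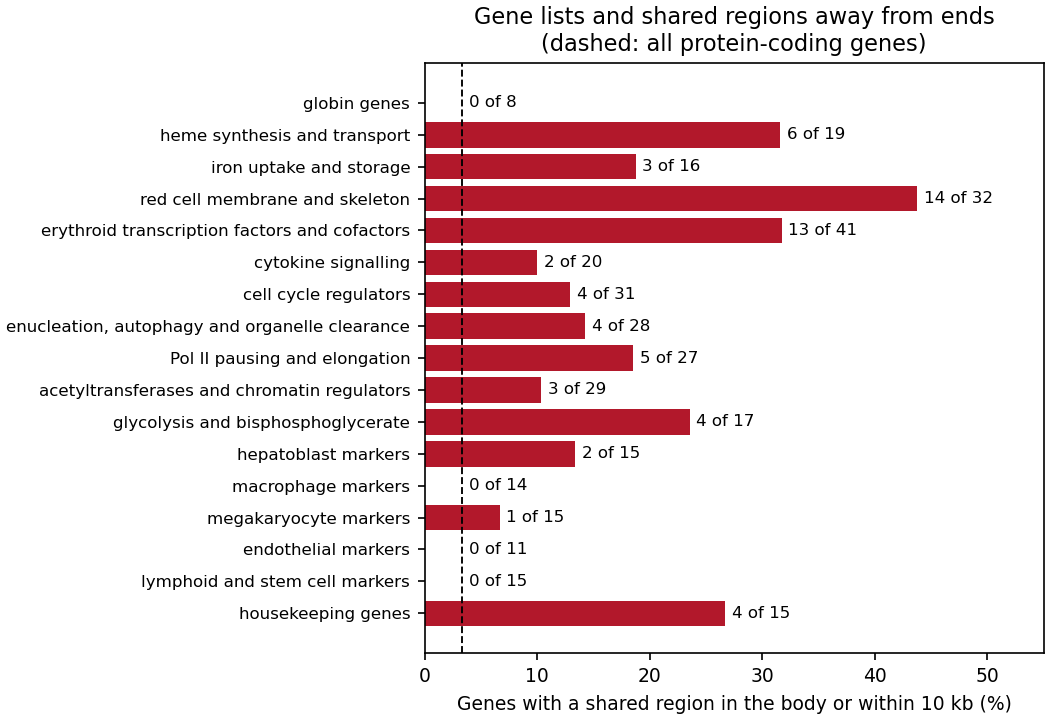
Share of genes (x axis, %) in each of 17 lists with a member in the gene or its 10 kb flanks; numbers give genes with a member of genes matched, and the dashed line marks the 3.29% of all protein-coding genes. Red cell membrane genes stand highest, at 14 of 32, and globin, macrophage, endothelial and lymphoid and stem cell genes at 0. In lists this short, 0 cannot be told from the share of all genes.

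Between genes lay 173 members (24.2%). Of these 92 were within 10 kb of a protein-coding gene end and 23 over 50 kb away. Their nearer gene end was a 5′ end for 102 of 169 (60.4%, 95% exact binomial interval 52.6 to 67.8), beside 57.0% and 56.3% in the WT-only and Nan-only classes between genes, which lie within that interval. Inside lncRNA genes lay 44 of the 173 (25.4%), a count given without the share in the other classes. The widest was in Neat1, the scaffold RNA of nuclear paraspeckles, with 2092 bp and 1332 bp in Nan/+. A member in Pvt1, beside Myc, had 655 and 223 bp, and one at Snhg8, a small nucleolar RNA host gene, lay 55 bp from its start with 647 and 596 bp.

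Of 1005 microRNA hairpins in the RefSeq table, 16 (1.59%) lay within 5 kb of a member. The nearest were Mir7653, inside a member of Tlcd1, Mir1905 (137 bp away, in Mex3a) and Mir5619 (833 bp, in Nudt9), and Mir7088 and Mir1894 also lay in that range. The other hairpins belong to 3 loci known in blood, described here for that reason after their positions were seen. A member of 1396 bp (chr11:78068651-78070046), with 465 bp in Nan/+, lay 2.96 kb from the hairpin of Mir144 and 3.12 kb from that of Mir451a, a cluster expressed in erythroid cells. Beside the Mir17 cluster, which acts in cell proliferation, 2 members of 276 and 174 bp (Nan/+ 273 and 291 bp) lay 2.57 and 1.35 kb from the Mir17 hairpin and about 50 kb from the nearest protein-coding gene end. Beside Mir142, a microRNA of blood lineages, lay members of 629 and 970 bp (Nan/+ 569 and 3007 bp). The mature sequences are shown to identify the microRNAs (RefSeq, GRCm38.p6), with the seed, bases 2 to 8, in capitals; miR-17-5p and miR-20a-5p share a seed, as do miR-19a-3p and miR-19b-3p.
miR-144-3p: uACAGUAUagaugauguacu
miR-451a: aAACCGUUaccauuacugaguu
miR-142a-3p: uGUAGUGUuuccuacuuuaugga
miR-17-5p: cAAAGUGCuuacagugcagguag
miR-20a-5p: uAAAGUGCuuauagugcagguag
miR-19a-3p: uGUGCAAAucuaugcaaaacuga
miR-19b-3p: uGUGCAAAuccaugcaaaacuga
miR-92a-3p: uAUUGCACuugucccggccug

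Some members were also close to other shared sites. A shared region at a gene end lay within 10 kb of 12.0% of members, 8.06% of the WT-only and 3.99% of the Nan-only class, and 113 members (15.8%) lay within 10 kb of another member. By chromosome, the share of WT regions away from gene ends that were members ran from 8.33% on X (8 of 96) to 20.3% on 7 (62 of 306).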

How the data were processed

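Regions were read from 2 deposited BED files, 1 per genotype. Per the file headers, the authors called them with HOMER on mm10 from 3 ChIP libraries against input, with a q of 0.01, a fold of 4 and a DESeq2 step, at a peak size of 125 bp and minimum distance of 250 bp in WT and 175 and 300 bp in Nan/+. The submitters' processing notes also name Bowtie2 2.1 and SAMtools 1.1. The deposited score column is 1 in every row and was not used as a strength. Regions on the mitochondrial chromosome and unplaced sequence (7 WT, 5 Nan/+) were left out. Genes and starts came from RefSeq tables of GRCm38.p6, with 21519 protein-coding genes and 32851 windows at starts, which cover 17273 of those genes and 0 on chromosome 18. Positions are counted from 1.

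Shares were compared by Fisher's exact test (SciPy 1.17.1), two-sided, adjusted over 8 features and 2 comparison classes; code was tested on simulated data. Intervals are exact binomial (Clopper-Pearson) and cover counting error only. Of 355 gene list entries 354 matched. The members and lists were chosen with earlier results of these data known, and the start, first 25% and microRNA results were added after the data were seen. Other motifs were also viewed and not used. Motifs in the regions themselves need a genome, which was not used here; windows at starts replaced them. Genes were named by width, by number of members, by list and by nearness to a threshold; others were chosen after their values were seen. Alternatives changed the overlap, distance, genes, Nan/+ width, neighbours and gene flanks, and, added after the data were seen, the distance from starts and the region width.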

Additional observations from a re-analysis of the deposited data

How the results depend on the processing

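Of 163 recomputed values, 133 held their call and direction or, for counts, stayed within 1.5 times; 9 reversed. Members numbered 385 with a reciprocal overlap of 50% and 459 over 5 kb from gene ends, in place of 716. Genes with a member numbered 452 with bodies alone, 1543 with 50 kb flanks and 419 with a reciprocal overlap of 50%, in place of 709, as those definitions imply. The excess of members over Nan-only regions inside genes, 4.76 points, did not pass with a reciprocal overlap of 50% (4.10 points), centres within 250 bp (2.81), Nan/+ regions above the minimum width (2.19), or distances from gene ends of 2 kb (3.68) and 5 kb (1.48), and turned to -4.08 among regions 300 to 700 bp wide; with 1 region per 100 kb it was 11.4. The excess over WT-only regions inside genes was 5.60 points at 300 to 700 bp and did not pass; the cause was not tested. The excess over WT-only regions in the first 25% of the gene, 9.44 points, did not pass over 5 kb from gene ends (4.40), over 1 kb from any annotated start (4.10) or at 300 to 700 bp (4.99). These values are description, since position is tied to the distance rule, and the cause was not tested. The share at annotated starts passed in each alternative run, with excesses of 7.81 to 20.1 points over WT-only and 10.8 to 26.0 over Nan-only regions. For the motif with G the excess did not pass with starts within 100 bp (13.51 over WT-only, 12.13 over Nan-only) and, over Nan-only windows, with the ends of all genes (15.3) and at 300 to 700 bp (19.9). The general motif passed over WT-only windows with a reciprocal overlap of 50% (11.9) and centres within 250 bp (11.1), and over Nan-only windows with starts within 500 bp (14.2). Differences that never passed changed sign for the E-box motif over WT-only windows with centres within 250 bp (0.12) and starts within 100 bp (0.36), and over Nan-only windows with centres within 250 bp (0.18), 2 kb from gene ends (0.88), the ends of all genes (2.42), starts within 100 bp (0.34) and 300 to 700 bp (3.30), and for GATAA over WT-only windows with the ends of all genes (0.080). The cause was not tested. Motif alternatives with other windows were not run, since no genome was used. No paired analysis was possible because the libraries of a genotype were merged into 1 list, so no replicate could be left out either. The lists give no tags per region, so regions just under the calling threshold cannot be seen at this depth.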
